A study of Mus musculus with 9 samples.

Results

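A set of 10 genes that mark retinal ganglion cells (Rbpms, Pou4f1, Pou4f2, Pou4f3, Thy1, Nefl, Nefm, Nefh, Sncg and Opn4) were described in whole mouse retina at postnatal day 21. They were taken by symbol, which gave 10 genes of the 55487 listed, 1 row for each, and all 10 passed the filter on low values. Bulk RNA-seq covered 3 genotypes with 3 libraries each, and every library pooled the retinas of 2 animals. Cre- retinas carried no Cre transgene and came from Cre- breeders. The tHet retinas were Tet1 loxp/+, Tet2 loxp/+ and Tet3 loxp/+ with Chx10-Cre-GFP, and the Tet tcKO retinas were Tet1 loxp/loxp, Tet2 loxp/loxp and Tet3 loxp/loxp with Chx10-Cre-GFP. All mice were labelled C57 BL/6J. Cre in this line is driven in retinal progenitors and can be mosaic, and Cre+ animals were in-crossed to reduce this, so breeding line and genotype cannot be told apart where Cre- is compared. The comparison asks whether transcripts of ganglion cells differ in retinas that lose the TET enzymes, which oxidise methylated cytosine as a step of DNA demethylation.

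Retinal ganglion cells are the output neurons of the retina, and their axons form the optic nerve. They are the first neurons born in the retina. The 10 genes serve different roles. Rbpms encodes an RNA-binding protein used to label nearly all ganglion cells, and Pou4f1, Pou4f2 and Pou4f3 encode the Brn3 POU-domain transcription factors that act in ganglion cell differentiation, survival and subtype identity. Thy1 encodes a surface glycoprotein. Nefl, Nefm and Nefh encode the light, medium and heavy neurofilament subunits that fill large axons, Sncg encodes gamma-synuclein, and Opn4 encodes melanopsin, the photopigment of the intrinsically photosensitive ganglion cells. Several of these transcripts are not confined to ganglion cells, since neurofilaments are also made by horizontal cells and Thy1 by other neurons. In bulk tissue, fewer cells of a type and less RNA per cell cannot be told apart.

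The sequences upstream of 4 of the 10 genes were in the RefSeq promoter table (GRCm38.p6) and are shown because CpG dinucleotides are where the methylated cytosines that TET enzymes act on mostly lie. Each run covers the 250 bases before the start in RefSeq, 5′ to 3′ on the gene's strand, with every CG in capitals. All 4 genes lie on the minus strand, at chr14:104468000-104468249 for Pou4f1, chr8:78436648-78436897 for Pou4f2, chr14:34374670-34374919 for Sncg and chr14:34600143-34600392 for Opn4. GENCODE, used for gene positions below, starts Sncg further upstream, so 120 of the 250 bases of its stretch lie inside the GENCODE gene.
Pou4f1: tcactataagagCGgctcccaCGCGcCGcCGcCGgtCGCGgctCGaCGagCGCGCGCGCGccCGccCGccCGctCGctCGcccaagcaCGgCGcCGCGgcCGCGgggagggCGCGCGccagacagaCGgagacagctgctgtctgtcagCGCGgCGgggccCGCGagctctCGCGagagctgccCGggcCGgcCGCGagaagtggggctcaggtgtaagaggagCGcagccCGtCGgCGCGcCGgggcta
Pou4f2: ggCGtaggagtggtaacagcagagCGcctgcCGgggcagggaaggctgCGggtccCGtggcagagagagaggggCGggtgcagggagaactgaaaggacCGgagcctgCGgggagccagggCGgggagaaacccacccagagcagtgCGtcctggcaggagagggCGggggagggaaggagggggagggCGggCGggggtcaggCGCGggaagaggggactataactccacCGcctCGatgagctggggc
Sncg: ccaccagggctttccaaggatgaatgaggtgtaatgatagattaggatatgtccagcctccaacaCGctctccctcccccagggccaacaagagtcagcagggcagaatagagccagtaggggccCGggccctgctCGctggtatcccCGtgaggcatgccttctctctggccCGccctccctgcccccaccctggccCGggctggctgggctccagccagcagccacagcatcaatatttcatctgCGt
Opn4: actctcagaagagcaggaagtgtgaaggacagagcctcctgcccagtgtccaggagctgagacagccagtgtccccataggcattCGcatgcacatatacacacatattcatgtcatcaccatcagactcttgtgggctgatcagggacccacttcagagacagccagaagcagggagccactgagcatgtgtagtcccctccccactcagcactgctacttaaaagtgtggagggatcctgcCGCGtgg
The Pou4f1 stretch held 47 CG dinucleotides, a number reached by 0.250% of the 32851 promoters in the table. The Pou4f2 stretch held 17, reached by 23.5% of promoters, the Sncg stretch 7, reached by 46.3%, and the Opn4 stretch 3, reached by 71.0%. The median promoter had 6. None of the 4 held TATAAA on either strand, which 12.4% of all promoters did. No methylation value was analysed here, so these counts describe the sequence only.

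Reads counted on genes numbered 9627927 to 21108256 per library, and 3 reads corresponded to 0.142 to 0.312 CPM (counts scaled to a common library total), the unit of all levels below. Tet tcKO replicate 3 stood apart: the ribosomal RNA gene CT010467.1 took 28.7% of its reads, against 3.72% in tHet replicate 3 and 0.0409% to 0.226% in the other 7 libraries. Since CPM is a share of all reads, that gene lowers every other value in the library, and results are given with and without it. Transcripts of the targeted genes were counted over whole genes, so reads over the deleted exons were not analysed here. Tet3 was at 213, 268 and 223 CPM in Cre-, 268, 288 and 155 in tHet and 108, 152 and 99.2 in Tet tcKO, where every library was below every other library, but the difference missed the threshold for a call (log2FC -0.99 against Cre-, adjusted p = 0.0174, and -0.96 against tHet, adjusted p = 0.0239). Tet1 (log2FC 0.22, adjusted p = 0.808) and Tet2 (log2FC 0.25, adjusted p = 0.793) did not differ beyond the spread from Cre-.

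In Tet tcKO retinas the 10 genes did not move together. Gamma-synuclein and the heavy neurofilament subunit had the largest differences, both lower in every Tet tcKO library than in every control library, and the light and medium subunits were lower to a smaller extent. The transcripts of Rbpms, Pou4f1 and Pou4f2 had means in Tet tcKO within 1 SD of those in Cre-. A gene was called at a difference of at least 1 on the log2 scale of CPM + 0.5 (log2FC) with an adjusted p under 0.01. By this rule Sncg and Nefh fell against tHet and none of the 10 was called against Cre-.

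**Figure D1:**
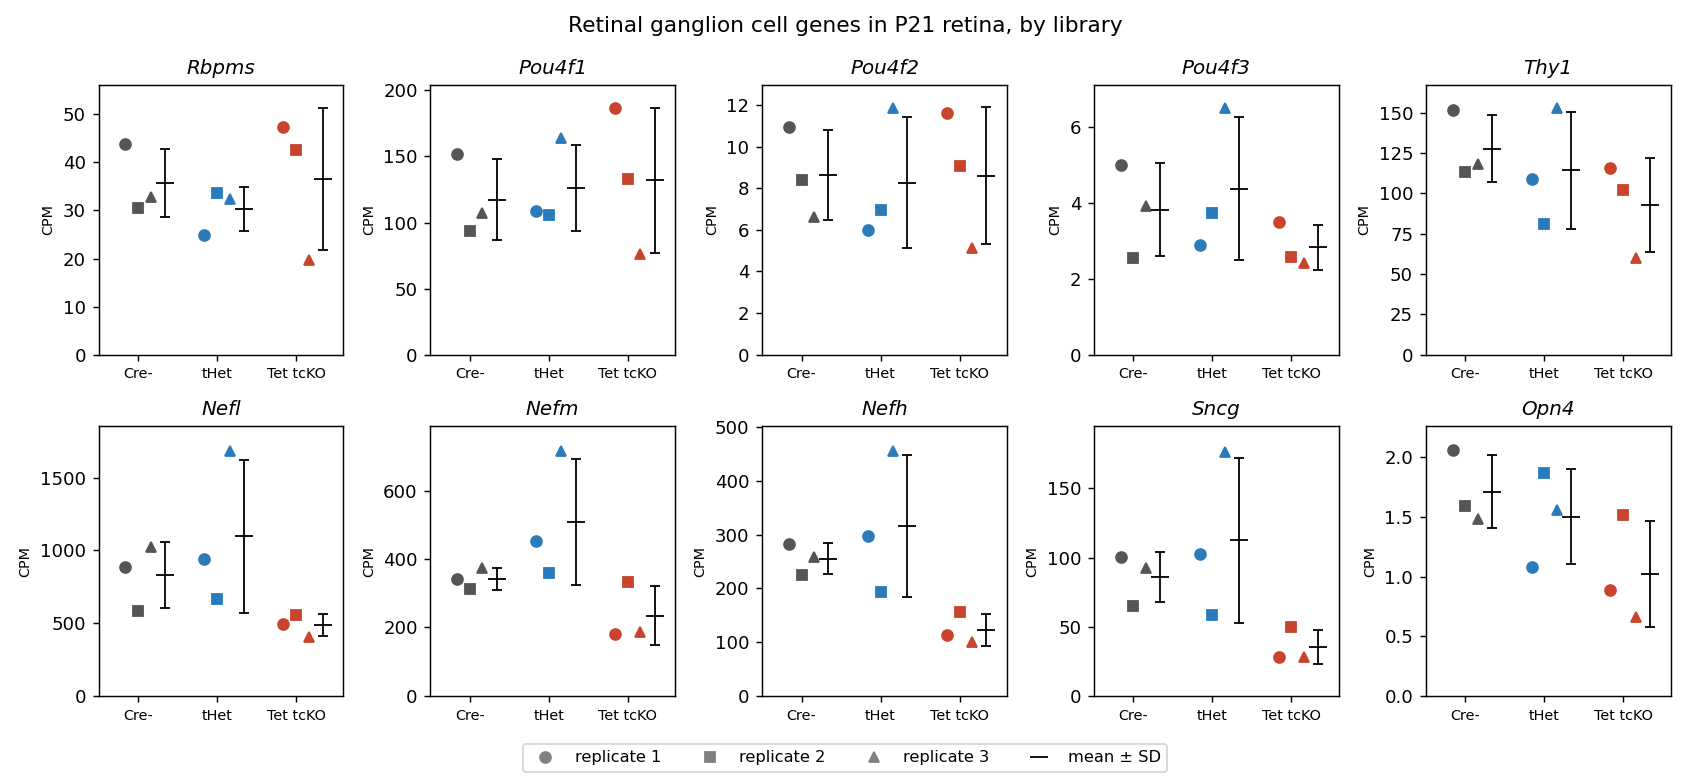
CPM (y axis, from 0) of each of the 10 ganglion cell genes in the 9 libraries by genotype (x axis); the symbol gives the replicate number, and the black mark with bars gives the mean ± SD of 3 libraries. All 3 Tet tcKO points for Nefl, Nefh and Sncg lie below all control points, while those for Rbpms, Pou4f1 and Pou4f2 spread across the control range.

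Sncg lies at chr14:34370274-34374789 on the minus strand. It was at 100.2, 65.2 and 92.1 CPM in Cre-, at 102, 58.5 and 176 CPM in tHet and at 28.4, 49.9 and 28.3 CPM in Tet tcKO. The highest Tet tcKO library was below the lowest library of both controls, and tHet replicate 3 was the highest of the 9. Means were 85.8 ± 18.3, 112 ± 59.5 and 35.5 ± 12.4 CPM (SD, n = 3). Against tHet the log2FC was -1.56 (standard error 0.32, adjusted p = 0.00365), which is 0.339 times the tHet level. Against Cre- it was -1.29 (standard error 0.32, 95% interval -1.95 to -0.63), but the adjusted p of 0.0137 did not pass.

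Nefh, the heavy subunit, lies at chr11:4938754-4948064 on the minus strand. It was at 282, 225 and 259 CPM in Cre-, at 299, 194 and 456 CPM in tHet and at 113, 156 and 99.7 CPM in Tet tcKO. Again the Tet tcKO libraries were the lowest of the 9, and tHet replicate 3 was the highest. Means were 255 ± 28.8, 316 ± 132 and 123 ± 29.7 CPM (SD, n = 3). The log2FC was -1.30 against tHet (standard error 0.27, adjusted p = 0.00455) and -1.07 against Cre- (standard error 0.27, 95% interval -1.63 to -0.51, adjusted p = 0.0170), of which only the first passed.

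The calls against tHet depend on scaling and on single libraries. Neither gene was called with TMM scaling, where the log2FC was -1.49 for Sncg (adjusted p = 0.0329) and -1.23 for Nefh (adjusted p = 0.0280), nor when CT010467.1 was left out of the totals. The number of the 10 genes called against tHet was 0 without tHet replicate 1, without Tet tcKO replicate 1 and without Tet tcKO replicate 3, and 1 without tHet replicate 3. Without both libraries rich in CT010467.1, none was called against either control, and the log2FC was -1.03 for Sncg and -0.85 for Nefh against tHet and -1.16 and -0.93 against Cre-. The sign was negative for both genes and against both controls under all 21 alternatives, with adjusted p up to 0.126 for Sncg against Cre-, 0.0855 for Sncg against tHet, 0.102 for Nefh against Cre- and 0.0548 for Nefh against tHet.

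Nefl and Nefm are neighbours on chromosome 14 on opposite strands. Nefl lies at chr14:68083863-68089095 on the plus strand and Nefm at chr14:68082590-68124846 on the minus strand, and their annotated exons overlap. The strand setting of the counting was not given in the sources used here, so reads in the overlap may be assigned uncertainly. Nefl, the light subunit, was at 889, 583 and 1023 CPM in Cre-, at 939, 668 and 1685 CPM in tHet and at 494, 557 and 405 CPM in Tet tcKO. All Tet tcKO libraries were below all control libraries, the nearest pair being Cre- replicate 2 and Tet tcKO replicate 2. The log2FC was -0.75 against Cre- (standard error 0.31, adjusted p = 0.209) and -1.08 against tHet (adjusted p = 0.0450). Nefm, the medium subunit, was at 341, 311 and 373 CPM in Cre-, at 452, 359 and 715 CPM in tHet and at 182, 334 and 186 CPM in Tet tcKO. Tet tcKO replicate 2 fell inside the Cre- range, and the Tet tcKO libraries did not overlap those of tHet. The log2FC was -0.60 against Cre- (standard error 0.28, adjusted p = 0.280) and -1.12 against tHet (adjusted p = 0.0170). Neither gene was called in either comparison.

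Ratios between subunits were compared within libraries. The log2 ratio of Nefm to Nefl was -1.25 ± 0.30 in Cre- and -1.10 ± 0.35 in Tet tcKO (SD, n = 3; exact permutation test, two-sided, p = 0.6), and that of Nefh to Nefl was -1.67 ± 0.30 and -1.99 ± 0.15 (exact p = 0.2). Over the 3 ratios tested, the third being Pou4f1 to Pou4f2, every adjusted p was 0.6, and since the smallest p that 3 libraries against 3 can give is 0.1, this test could not have passed. The difference in Nefh to Nefl, -0.32, was larger than the SD of either genotype, and it was negative whichever library was left out (-0.48 to -0.18). In tHet this ratio was -1.77 ± 0.12. The libraries overlapped, since Cre- replicate 3 (-1.98) and tHet replicate 3 (-1.89) lay within the Tet tcKO range (-2.13 to -1.83).

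Rbpms (chr8:33782643-33929863, minus strand) was at 43.7, 30.5 and 32.8 CPM in Cre-, at 24.99, 33.5 and 32.4 CPM in tHet and at 47.4, 42.6 and 19.7 CPM in Tet tcKO. The Tet tcKO libraries spanned the whole control range, and the lowest was replicate 3. The log2FC was -0.04 against Cre- (95% interval -0.63 to 0.54, adjusted p = 0.984) and 0.18 against tHet (95% interval -0.40 to 0.77, adjusted p = 0.822). Without Tet tcKO replicate 3 the value against Cre- was 0.35, and the sign is therefore not settled.

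Pou4f1 (Brn3a; chr14:104461676-104467999, minus strand) was at 152, 93.5 and 107 CPM in Cre-, at 109, 106 and 164 CPM in tHet and at 187, 133 and 76.1 CPM in Tet tcKO. Tet tcKO held both the highest and the lowest of the 9 libraries. The log2FC was 0.11 against Cre- (95% interval -0.49 to 0.70, adjusted p = 0.948) and -0.00 against tHet (adjusted p = 0.999). Pou4f2 (Brn3b; chr8:78433010-78436645, minus strand), which acts early in ganglion cell differentiation, was at 10.9, 8.40 and 6.62 CPM in Cre-, at 5.98, 6.96 and 11.9 CPM in tHet and at 11.6, 9.09 and 5.12 CPM in Tet tcKO. Its log2FC was -0.05 against Cre- (95% interval -0.74 to 0.64, adjusted p = 0.984) and 0.04 against tHet (adjusted p = 0.968). The log2 ratio of Pou4f1 to Pou4f2 was 3.76 ± 0.27 in Cre- and 3.92 ± 0.07 in Tet tcKO (exact permutation test, two-sided, p = 0.5). Pou4f3 (Brn3c), on chromosome 18, was at 5.004, 2.54 and 3.92 CPM in Cre-, at 2.88, 3.74 and 6.49 CPM in tHet and at 3.50, 2.57 and 2.41 CPM in Tet tcKO. The groups overlapped (log2FC -0.35 against Cre-, adjusted p = 0.781, and -0.50 against tHet, adjusted p = 0.524). As a multiple of the Cre- level, the 95% interval was 0.647 to 1.46 for Rbpms, 0.713 to 1.62 for Pou4f1, 0.598 to 1.56 for Pou4f2 and 0.475 to 1.30 for Pou4f3, so differences within these bounds remain compatible with the data.

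Thy1 (chr9:44043384-44048579, plus strand) was at 152, 113 and 118 CPM in Cre-, at 109, 80.9 and 153 CPM in tHet and at 116, 102 and 60.1 CPM in Tet tcKO. The groups overlapped, and Tet tcKO replicate 3 was the lowest library. The log2FC was -0.50 against Cre- (standard error 0.26, adjusted p = 0.379) and -0.31 against tHet (adjusted p = 0.630). Opn4 (chr14:34590618-34600142, minus strand) was the lowest of the 10 genes, with 11 to 35 reads per library, and its annotated exons overlap Gm49012 on the opposite strand. It was at 2.06, 1.59 and 1.49 CPM in Cre-, at 1.08, 1.87 and 1.56 CPM in tHet and at 0.891, 1.52 and 0.662 CPM in Tet tcKO. Tet tcKO replicates 1 and 3 were the lowest of the 9 libraries and replicate 2 lay within both control ranges (log2FC -0.57 against Cre-, adjusted p = 0.468, and -0.42 against tHet, adjusted p = 0.598).

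**Figure D2:**
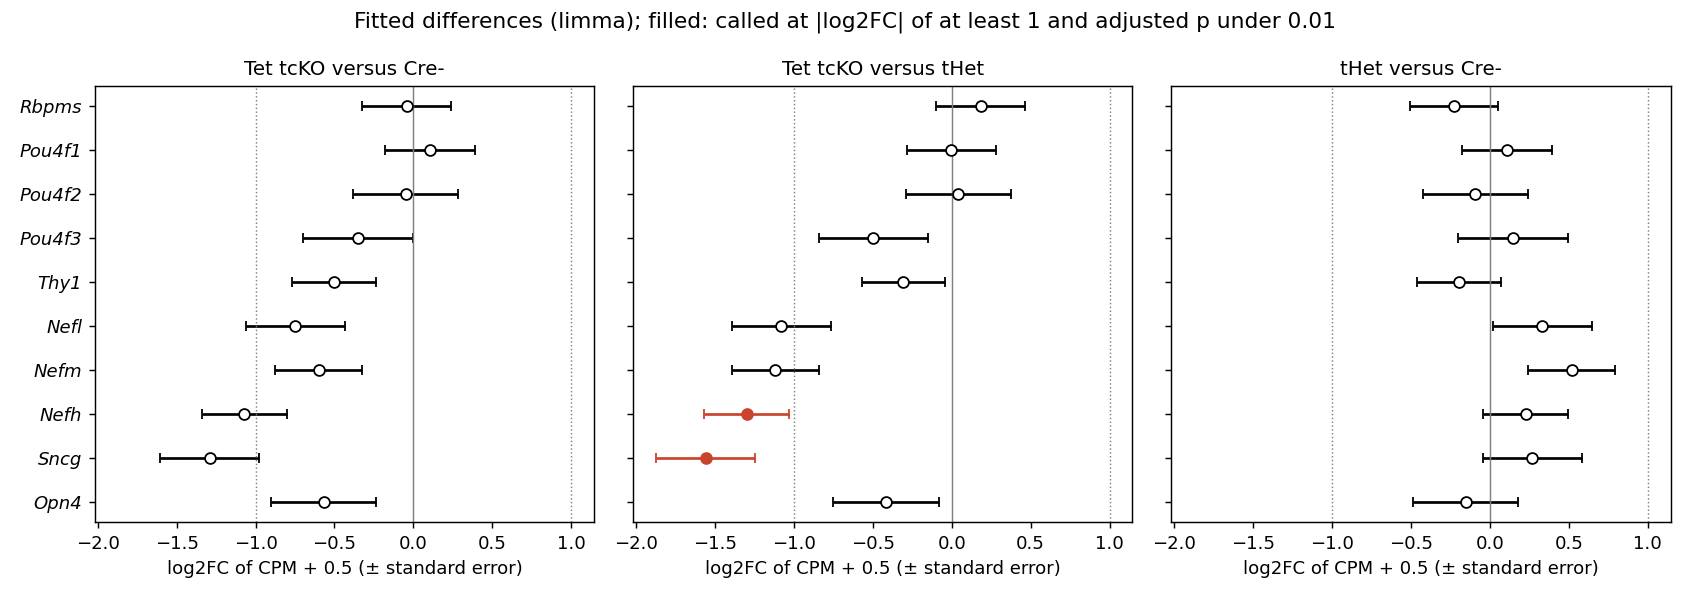
Fitted log2FC of CPM + 0.5 (x axis) with its standard error for the 10 genes (y axis) in the 3 comparisons; filled red points are called, and dotted lines mark a log2FC of -1 and 1. Sncg and Nefh are called against tHet, no gene is called against Cre-, and no value in tHet versus Cre- lies beyond 0.52.

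Counted over the 10 genes, 0 were called in Tet tcKO versus Cre-, where 3.6% of the 21330 genes tested were called, 2.03% (434) higher and 1.57% (334) lower. At an unadjusted p under 0.05 there were 4 (Sncg, Nefh, Nefl and Nefm), all lower, where 7.47% of all genes tested were lower at that level. DESeq2 on the reads called 2 of the 10 and 5.37% of all genes, and edgeR's quasi-likelihood test called 0 of the 10 and 3.49% (744) of all genes. In Tet tcKO versus tHet 2 of 10 were called, both lower, where 1.61% of all genes were called lower, 1.39% higher and 3.0% in either direction. The median log2FC of the 10 was -0.54 against Cre- and -0.46 against tHet, beside 0.00 and -0.06 over all genes tested. All Tet tcKO libraries lay below all Cre- libraries for 3 of 10 genes (Sncg, Nefl and Nefh) and below all tHet libraries for 4 of 10 (these and Nefm), while this held for 9.6% and 9.68% of all genes. The Tet tcKO libraries are shared by these comparisons.

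In tHet versus Cre-, none of the 10 genes was called by limma, edgeR or DESeq2, and 0 had an unadjusted p under 0.05. Among all genes limma called 9, which is 0.0422% of those tested, edgeR 0.00469% and DESeq2 0.188%. The log2FC of the 10 ran from -0.23 for Rbpms to 0.52 for Nefm, with a median of 0.13. For Nefl, Nefm, Nefh and Sncg the tHet libraries were widely spread, with replicate 3 the highest of the 9 and replicate 2 below the highest Cre- library, so the means in tHet carry large SDs (for Nefl 1097 ± 527 CPM, against 831 ± 225 CPM in Cre-).

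A ratio of 2 genes in 1 library does not depend on how the library is scaled, and ratios to Rbpms, chosen after the values were seen, are therefore given as a description without a test. The ratio of Sncg to Rbpms was 2.29, 2.14 and 2.81 for the Cre- libraries, 4.10, 1.74 and 5.45 for tHet and 0.599, 1.17 and 1.43 for Tet tcKO. That of Nefh to Rbpms was 6.45, 7.36 and 7.90 for Cre-, 11.9, 5.78 and 14.1 for tHet and 2.39, 3.67 and 5.05 for Tet tcKO. That of Opn4 to Rbpms was 0.0471, 0.0521 and 0.0453 for Cre-, 0.0432, 0.0557 and 0.0483 for tHet and 0.0188, 0.0355 and 0.0335 for Tet tcKO, on few reads. For these 3 genes all Tet tcKO libraries, replicate 3 included, were below all 6 control libraries. The share of all genes whose ratio to Rbpms separates in this way was not counted. In plain CPM Opn4 overlapped both controls, with Tet tcKO replicate 2 at 1.52 CPM, and Rbpms was high in Tet tcKO replicates 1 and 2 (47.4 and 42.6 CPM). For Thy1 the ratio was 3.47 to 3.71 for Cre-, 2.41 to 4.73 for tHet and 2.39 to 3.04 for Tet tcKO, below all Cre- libraries but overlapping tHet. The ratio of Nefl to Rbpms averaged 23.5 ± 6.65 over the Cre-, 36.5 ± 16.1 over the tHet and 14.7 ± 5.22 over the Tet tcKO libraries (SD, n = 3), and Tet tcKO replicate 3, at 20.5, lay within both control ranges. The ratio of Nefm to Rbpms averaged 9.78 ± 1.82, 16.97 ± 5.79 and 7.03 ± 2.88. The ratio of Pou4f1 to Rbpms was 3.26 ± 0.20 (Cre-), 4.20 ± 0.97 (tHet) and 3.64 ± 0.45 (Tet tcKO), with overlap, and the ratio of Pou4f2 to Rbpms was 0.242 ± 0.0373, 0.271 ± 0.0847 and 0.239 ± 0.0236.

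**Figure D3:**
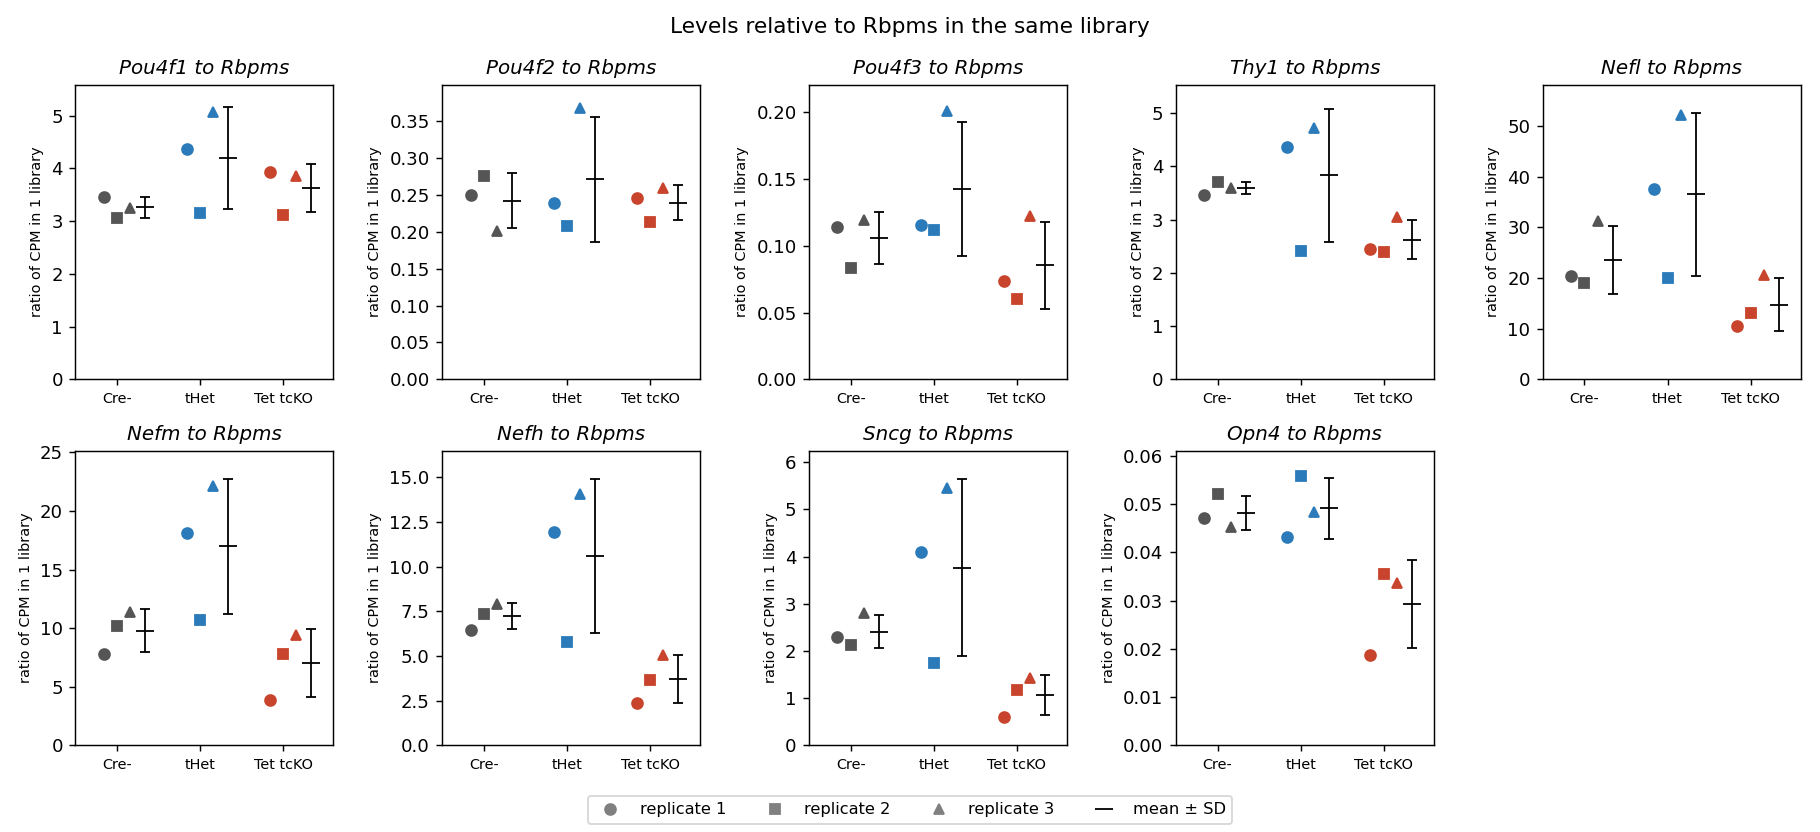
Ratio of the CPM of each of the other 9 genes to the CPM of Rbpms in the same library (y axis, from 0) by genotype (x axis); symbols give the replicate number and black marks the mean ± SD of 3 libraries. For Nefh, Sncg and Opn4 every Tet tcKO library lies below every control library, for Thy1 below every Cre- library, and for Pou4f1, Pou4f2 and Pou4f3 the genotypes overlap. The share of all genes that separate in this way was not counted.

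Levels between genes were compared as CPM per kilobase of annotated exon. In Cre- the order was Nefl (246 ± 66.7), Sncg (101 ± 21.5), Nefh (64.0 ± 7.22), Nefm (59.1 ± 5.34), Thy1 (42.6 ± 7.01), Pou4f1 (25.1 ± 6.51), Rbpms (5.44 ± 1.08), Pou4f2 (2.701 ± 0.680), Pou4f3 (1.59 ± 0.514) and Opn4 (0.578 ± 0.103), each a mean ± SD of 3 libraries. Nefh and Nefm were neighbours that differed by less than their SDs. In Tet tcKO, Sncg (41.7 ± 14.6), Nefm (40.5 ± 15.0), Thy1 (30.9 ± 9.69), Nefh (30.8 ± 7.43) and Pou4f1 (28.2 ± 11.8) followed each other with gaps under 1 SD. Rbpms came next at 5.58 ± 2.25, well below Pou4f1. Nefl stayed first (144 ± 22.7) and Opn4 last (0.345 ± 0.149).

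Across the 9 libraries, correlations of log2 levels are given as a description, since the libraries share genotype and differ in depth and in CT010467.1. Sncg varied with Nefh (Pearson's r 0.99), Nefl (0.95) and Nefm (0.94). Rbpms varied with Pou4f1 (0.81) and Pou4f2 (0.81), whereas its r was near 0 with Sncg (0.02), Nefl (0.07), Nefm (-0.01) and Nefh (0.04). Other genes of the 10 lay between, with Thy1 at 0.73 with Pou4f1 and 0.73 with Nefh, and Pou4f3 at 0.80 with Nefl. With the genotype means removed, r was 0.98 for Sncg and Nefh, 0.23 for Sncg and Rbpms and 0.61 for Pou4f1 and Nefl. Of 11875 other genes with a mean of at least 5 CPM, the 3 whose levels followed the mean of the 10 genes most closely over the 9 libraries were Atp1b1 (r 0.97), a sodium pump subunit, Ank1 (0.97), an ankyrin, and Fabp3 (0.96), a fatty acid binding protein. All 3 were highest in tHet replicate 3 and lowest in Tet tcKO replicate 3, as was the mean of the 10 genes.

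Other genes of ganglion cells were examined by list. Of 16 further ganglion cell transcription factors, 14 were tested, and 2 rose in Tet tcKO against both controls. Over all genes tested, 2.03% were called higher against Cre- and 1.39% against tHet. Foxp2, a forkhead factor of a set of ganglion cell types, went from 7.06 to 8.30 CPM in Cre- and 7.85 to 12.2 CPM in tHet to 20.7 to 28.7 CPM in Tet tcKO (log2FC 1.65 against Cre-, adjusted p = 0.000271, and 1.31 against tHet, adjusted p = 0.00271). Atoh7, the factor that makes progenitors competent to form ganglion cells, was at 0.118 to 0.473 CPM in Cre-, 0 to 0.237 CPM in tHet and 1.32 to 2.02 CPM in Tet tcKO (log2FC 1.46, adjusted p = 0.00575, and 1.81, adjusted p = 0.00101), so its control values were near the level of 3 reads. The other 12 tested, including Isl1 (log2FC -0.52 against Cre-, adjusted p = 0.301) and Eomes (0.01, adjusted p = 0.997), were not called. Among these, Isl2 had a log2FC of 1.49 against Cre- (adjusted p = 0.0301), with every Tet tcKO library above every Cre- library. The share of all genes that lay above in this way is not given. Ebf1 was at -0.70 (adjusted p = 0.0820), with every Tet tcKO library below every Cre- library, as for 9.6% of all genes tested. Both overlapped tHet. Foxp2 and Isl1 are also expressed in other retinal neurons.

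Of 12 other genes enriched in ganglion cells, 0 were called against either control. The most abundant were Calb2, encoding calretinin, averaging 291 ± 85.0 CPM over the Cre- and 152 ± 52.5 CPM over the Tet tcKO libraries (SD, n = 3; log2FC -0.96, adjusted p = 0.0397), and Chrna6, a nicotinic receptor subunit, at 159 ± 24.7 and 115 ± 28.2 CPM (log2FC -0.48, adjusted p = 0.306). Against tHet, the log2FC of Calb2 was -1.07 (adjusted p = 0.0229), also not called. Calb2 ran from 216 to 383 CPM in Cre-, 272 to 374 CPM in tHet and 92.2 to 189 CPM in Tet tcKO. The paper used calretinin staining to label layers of the inner plexiform layer. The median log2FC of this list was -0.16 against Cre-. Of 14 subtype genes 13 were tested, and 2 rose and 3 fell against Cre-, beside 2.03% of all genes tested called higher and 1.57% lower. Zic1 (log2FC 2.20, adjusted p = 2.36e-05) and Penk, which encodes proenkephalin (2.08, adjusted p = 0.000392), rose, but neither was called against tHet. Zic1 was at 4.96 to 6.14 CPM in Cre-, 13.8 to 28.7 CPM in tHet and 25.7 to 31.8 CPM in Tet tcKO, so every tHet library was also above every Cre- library (log2FC 1.64, adjusted p = 0.0135, not called). Penk ranged from 20.4 to 84.5 CPM in tHet. Cartpt, a neuropeptide precursor of direction-selective ganglion cells (log2FC -1.61, adjusted p = 0.00688), Spp1, osteopontin of alpha ganglion cells (-1.39, adjusted p = 0.00947), and Mmp17 (-1.10, adjusted p = 0.00727) fell. Of these only Mmp17 was also called against tHet (log2FC -1.20, adjusted p = 0.00424).

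The axon cytoskeleton and initial segment list held 12 genes, of which 0 were called against Cre- and 1 against tHet. Over all genes tested, 3.6% were called against Cre- and 3.0% against tHet. Nfasc, which encodes neurofascin of the initial segment and nodes, was at 231 to 324 CPM in Cre-, 274 to 449 CPM in tHet and 92.4 to 193 CPM in Tet tcKO (log2FC -1.48 against tHet, adjusted p = 0.00124, and -1.12 against Cre-, adjusted p = 0.0111). Map1b (log2FC -0.02 against Cre-), Map1a (-0.12, adjusted p = 0.946) and Ank3 (-0.55, adjusted p = 0.314), also abundant, were not called. Ina, alpha-internexin, the fourth neuronal intermediate filament subunit of these axons, had a log2FC of -0.32 (adjusted p = 0.691). The median of the list was -0.30 against Cre-. None of 8 genes of the melanopsin cascade was called. Plcb4, the phospholipase, averaged 382 ± 40.0 CPM over the Cre- and 332 ± 97.9 CPM over the Tet tcKO libraries, and Arrb1 averaged 102 ± 19.8 and 120 ± 47.1 CPM. The channel gene Trpc7 had a log2FC of -1.19 against Cre- (adjusted p = 0.0400). Gna14 went the other way, with a log2FC of 1.07 against Cre- (adjusted p = 0.0769) and 0.85 against tHet (adjusted p = 0.187). Its Tet tcKO libraries were all above all control libraries, and the share of all genes for which this held is not given.

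**Figure D4:**
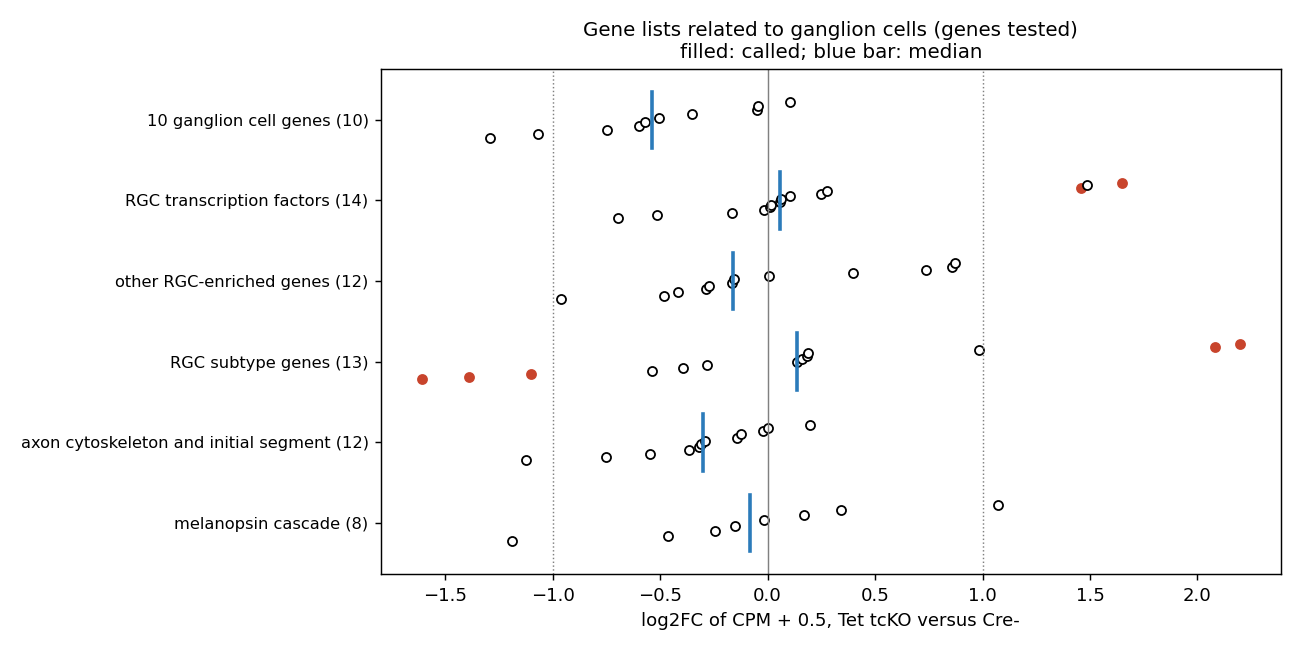
Fitted log2FC in Tet tcKO versus Cre- (x axis) of each tested gene in the 10 ganglion cell genes and in 5 related lists (y axis, number tested in brackets; RGC stands for retinal ganglion cell); filled red points are called, and the blue bar is the median of the list. The 10 ganglion cell genes have a median of -0.54 with none called, and the subtype list has called genes on both sides.

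Markers of other cells were measured beside these values, and their part in the results was not tested. Over all genes tested, 2.03% were called higher and 1.57% lower against Cre-, and 1.39% and 1.61% against tHet. Horizontal cells also make neurofilaments. None of their 5 markers was called against either control, their median log2FC was -0.51 against Cre-, and their summed level was 235 to 351 CPM in Cre-, 283 to 356 CPM in tHet and 175 to 287 CPM in Tet tcKO. Of 8 amacrine markers 1 was called, Slc6a9, lower, and the sums were 564 to 668, 468 to 626 and 426 to 885 CPM. The lowest horizontal cell and amacrine sums were those of Tet tcKO replicate 3, the library rich in CT010467.1. Of 6 rod markers 5 were called lower against both controls, with sums of 13846 to 15757, 13012 to 15208 and 2835 to 5577 CPM. Of 6 cone markers 5 were called higher and 1, Pde6h, lower. Of the other lists, bipolar cells had 1 of 6 called higher and 2 lower against Cre-, Müller glia 2 of 6 lower, pigment epithelium 3 of 4 lower and microglia 1 of 4 higher, lens and vascular markers had none called, and the 3 T cell genes were under 0.5 CPM throughout. The optic nerve and oligodendrocyte markers were not called and summed to 20.9 to 28.6, 22.9 to 30.6 and 22.1 to 34.3 CPM, with Olig2 under 0.5 CPM in all libraries. Astrocyte markers, whose cells follow ganglion cell axons, summed to 33.0 to 54.1 CPM in Cre-, 52.9 to 201 in tHet and 49.0 to 137 in Tet tcKO. In tHet replicate 3, the library with the highest Sncg and neurofilament values, this sum was the highest of the 9, with 179.9 CPM from Gfap alone. The other 3 astrocyte markers summed to 20.8 CPM there and to 23.8 CPM in Tet tcKO replicate 1, the highest.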

How the data were processed

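Bulk RNA-seq of 9 whole-retina libraries, 3 per genotype, was analysed. The replicates are separate libraries of pooled animals. Per the labels and methods, the authors removed ribosomal RNA, made stranded libraries, trimmed reads (Trim Galore 0.6.7), aligned them to mm10 (STAR 2.7.0f), counted them on genes (HTSeq 0.11.2) and deposited CPM, read counts scaled by the plain library total. The annotation release and the strand and overlap settings were not given in the sources used here. The deposited columns of the authors' own comparisons (log2 fold changes, p-values) were not used. Every positive CPM value (100%, tolerance 0.02 reads) was a whole multiple of 1 read, so reads were recovered. The 95% intervals of log2FC were built from the standard error of the limma fit, so they include the spread between libraries. Floors from reads cover counting error only.

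Tests took the 21330 genes that reached 0.5 CPM in 3 or more libraries and used log2(CPM + 0.5), which understates changes of low genes, with limma 3.58.1 in R 4.3.3 (lmFit, eBayes with trend, 1 mean per genotype, all 9 libraries, Benjamini-Hochberg over all genes tested). No library pair was identical. Alternatives were pseudocounts of 0.1 and 1, no filter, 1 CPM in 3 libraries, upper-quartile scaling, edgeR 4.0.16 and DESeq2 1.42.0 on recovered reads, a replicate block, only the 6 libraries compared, leaving out each library, adjusted p under 0.05 and no fold threshold. TMM scaling in limma, totals without CT010467.1, and a fit without both libraries over 1% CT010467.1 were chosen after seeing the data. The tests were tested on simulated data. Positions are from GENCODE M21 (GRCm38), where 54349 of 55487 identifiers matched with their version.

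The members and lists were chosen with earlier results of these data known. Named are all 10 members, Tet1 to Tet3, called genes of each list (at most 4, by adjusted p) or, with fewer than 2 called, its 2 most abundant, the called cell markers Slc6a9 and Pde6h, and the 3 genes most like the members. The other called cell markers are given by count only. Spp1, Kcng4, Ina, Map1a, Isl1, Isl2, Ebf1, Eomes, Trpc7 and Gna14 were named after their values were seen. One gene list that was considered is not reported here.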

Additional observations from a re-analysis of the deposited data

How the results depend on the processing

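Of the 10 ganglion cell genes, 0 were called against Cre-, and 2 were called with DESeq2, with a replicate block, with only the 6 libraries compared and at an adjusted p under 0.05. Against tHet 2 were called, and the count was 0 with no filter on low values, upper-quartile scaling, edgeR, TMM scaling in limma, totals without CT010467.1 and without the 2 libraries over 1% CT010467.1, and 4 with the replicate block and at an adjusted p under 0.05. Leaving out 1 library gave 0 to 2 against Cre- and 0 to 3 against tHet. With no filter more genes are tested and adjusted for; the cause of the other changes was not tested. Against Cre- all genes called (768) numbered 417 with no filter, 1156 at an adjusted p under 0.05 and 360 to 976 without 1 library. Against tHet (640) they numbered 351 with no filter, 1046 with DESeq2, 1125 with the block, 1013 with only the 6 libraries compared, 1104 at an adjusted p under 0.05, 426 without the 2 libraries and 287 to 959 without 1. In tHet versus Cre- (9) they numbered 1 with no filter, upper-quartile scaling, edgeR, only the 6 libraries compared, TMM scaling and totals without CT010467.1, 0 without the 2 libraries, 40 with DESeq2, 40 with the block, 20 at an adjusted p under 0.05 and 0 to 17 without 1 library. Totals without CT010467.1 moved the median log2FC of all genes from 0.00 to 0.14 against Cre- and from -0.06 to 0.07 against tHet, and the split of higher to lower calls from 434 and 334 to 613 and 222 and from 297 and 343 to 427 and 215. Under those totals the log2FC against tHet was -1.42 for Sncg and -1.15 for Nefh. Replicate numbers did not pair the libraries (mean correlation of deviations 0.11 for equal numbers, from -0.35 to 0.56), so the block adjusts for a shared number only. Some uncalled values changed sign. Against Cre-, Rbpms was at 0.12 and Pou4f2 at 0.10 with totals without CT010467.1, and at 0.35 and 0.26 without the 2 libraries. Against tHet, Pou4f1 was at 0.046 with edgeR, 0.043 with DESeq2, 0.067 with TMM scaling, 0.14 with totals without CT010467.1 and 0.55 without the 2 libraries, where Thy1 was at 0.21. In tHet versus Cre-, Pou4f1 was at -0.10, Pou4f3 at -0.15, Sncg at -0.12, Nefl at -0.031 and Nefh at -0.080 without the 2 libraries. Leaving out 1 library gave, against Cre-, -0.28 to 0.35 for Rbpms, -0.19 to 0.45 for Pou4f1 and -0.29 to 0.26 for Pou4f2, and against tHet -0.048 to 0.57, -0.30 to 0.35 and -0.20 to 0.36. In tHet versus Cre- it gave -0.10 to 0.31 for Pou4f1, -0.37 to 0.10 for Pou4f2, -0.15 to 0.37 for Pou4f3, -0.12 to 0.67 for Sncg, -0.031 to 0.64 for Nefl, -0.080 to 0.54 for Nefh, -0.43 to 0.027 for Thy1 and -0.28 to 0.0083 for Opn4. The difference in the log2 ratio of Nefm to Nefl ran from -0.032 to 0.32. Nefl, Nefm, Opn4 and Pou4f3 kept a negative sign against both controls under all 21 alternatives, and Thy1 against Cre-.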
